A study of Caenorhabditis elegans with 2 samples.

Results

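The mutator and small RNA amplification genes described here are 10 genes of Caenorhabditis elegans that act where small interfering RNAs (siRNAs) are copied in number: mut-7, mut-14, mut-15, mut-16, rde-10, rde-11, rde-12, rrf-1, ego-1 and ekl-1. They were picked by name, through their gene identifiers, and all 10 were found among the 45510 genes of the count tables. What was counted was small RNA that matched these genes and co-purified with the tagged Argonaute protein NRDE-3. Neither library was an untagged or input control, so binding of a given read was not tested. The values say nothing directly of how much messenger RNA or protein the genes made.

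In worms, an Argonaute guided by a first small RNA marks a target transcript, and RNA-dependent RNA polymerases then copy the transcript into many secondary siRNAs, which are antisense to it. In the germline much of this copying takes place in mutator foci, granules beside the nuclear envelope that the protein MUT-16 holds together. NRDE-3 is an Argonaute of somatic cells that binds secondary siRNAs in the cytoplasm and carries them into the nucleus, so an antisense read on a gene in these libraries is a candidate NRDE-3 guide against that gene's own transcript.

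The study compared 2 libraries of small RNAs of 20 to 30 nt that co-purified with FLAG-tagged NRDE-3 from embryo lysates of animals grown at 20 °C. Animals of the wild-type group were N2 with the genotype 3xflag::gfp::nrde-3, raised on the food bacterium E. coli OP50. Those of the RNAi group carried eri-1(mg366) and dpy-13(e458) together with the same 3xflag::gfp::nrde-3, and were fed dpy-13 RNAi bacteria in place of OP50. The eri-1 gene encodes an exonuclease whose loss is known to make worms more sensitive to RNA interference, and dpy-13 is a cuticle collagen gene. The tagged protein was thus present in both groups, and which promoter drives it is not stated in the labels. Each group held 1 library, so the conditions could not be tested, and the mutations, the food and the preparation of the library cannot be told apart.

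Sense and antisense together, 7693320 reads were counted for wild type and 5537671 for RNAi, and levels are reads per 1000000 of these (RPM). At these depths a single read was worth 0.130 and 0.181 RPM. A fixed floor of 3 reads, or 0.390 and 0.542 RPM, was set for counts of 0. The exact interval of a count of 0 reaches somewhat higher, to 0.4795 and 0.666 RPM. Intervals are exact 95% intervals, and like the floor they cover counting error only, since amplified reads without molecular identifiers are not independent molecules. The trigger gene dpy-13 had 1 antisense read in the wild-type and 115 in the RNAi library, which goes with the labels. As a check of the stage, the 8 genes of the embryonic mir-35 to mir-42 group had 2546 and 12571 sense reads, whereas 4 matched genes of later stages (let-7, lin-4, mir-84 and mir-241) had 2 and 21, with lin-4 at 0 in both.

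The 10 genes had few antisense small RNAs in wild-type embryos and more in the RNAi library, by a factor close to that of the median gene with 10 or more antisense reads. Their antisense reads summed to 51 in wild type against 467 after RNAi (6.63 against 84.3 RPM), and the ratio was 12.7 (9.51 to 17.3). All 10 had a ratio above 1 with an interval wholly above 1, as 91.8% of 5751 genes did. The median gene with 10 or more antisense reads over both libraries was 11.9-fold higher in the RNAi library, a log2 ratio of 3.58 over 5751 genes, and the median over the 13195 genes with 1 or more was 6.95-fold. Most of the 5751 genes passed the minimum through the RNAi library, with medians of 3 reads in wild type and 22 after RNAi. The 11.9-fold and the 91.8% may therefore come in part from that selection. The median log2 ratio of the 10 genes was 3.50, with 0.5 added to each count. Leaving out each of the 10 genes in turn gave summed ratios between 11.4 and 13.97. The choice of scaling moves all genes together: with TMM (trimmed mean of M-values), which sets the bulk of genes to nearly equal levels, the summed ratio was 1.38 and the median log2 ratio 0.29, against 0.37 for the median gene, and mut-15, rde-12 and ekl-1 turned slightly negative.

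**Figure D1:**
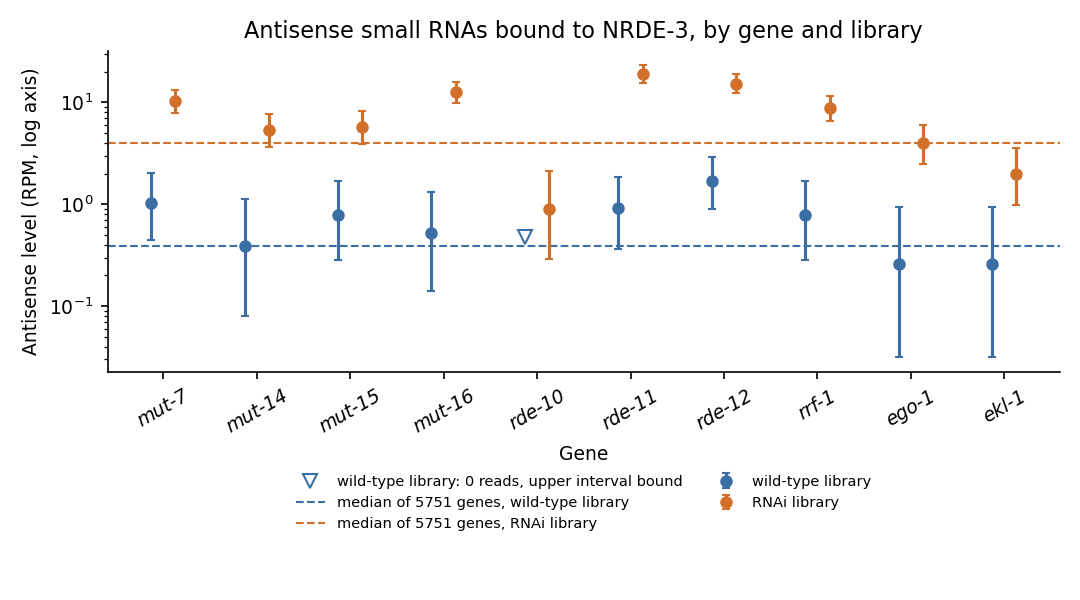
Antisense level in RPM (vertical log axis) of each of the 10 genes in the wild-type library (blue) and the RNAi library (orange). Points are single libraries, bars are exact 95% Poisson intervals of the count, the open triangle is the upper bound for rde-10 with 0 reads in the wild-type library, and dashed lines are the medians of 5751 genes, 0.390 and 3.97 RPM. Every gene had a higher value in the RNAi library on this scale; under TMM mut-15, rde-12 and ekl-1 did not.

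The scaffold of the mutator complex, MUT-16, is a protein rich in glutamine and asparagine that other mutator proteins need in order to gather in foci. Its gene, on chromosome I from 10080159 to 10085765 (WBcel235), had 4 antisense reads in wild type against 70 after RNAi (0.520 against 12.6 RPM). The ratio was 24.3 (9.08 to 91.7), the highest plain ratio of the 9 genes that had a read in both libraries, though its interval overlapped those of all the others. By annotated isoform the counts were 3 and 1 in wild type and 35 and 35 in the RNAi library. The 2 isoforms begin at the same position and are 3357 and 3402 nt long. Reads that match both are placed on 1 of them, so the split does not tell the isoforms apart.

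MUT-7, which holds a domain of the 3′ to 5′ exonuclease kind, is needed for transposon silencing and for RNA interference. mut-7 (chromosome III, 9539031 to 9542380) had 8 antisense reads in wild type against 57 after RNAi (1.04 against 10.3 RPM). That is a ratio of 9.90 (4.70 to 24.0), a little under that of the median gene, which its interval holds.

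MUT-15 is a further component that needs MUT-16 for its place in the foci, and MUT-14 is a DEAD-box RNA helicase. mut-15 (chromosome V, 15002543 to 15005067) had 6 against 32 antisense reads (0.780 against 5.78 RPM), 7.41-fold more (3.06 to 21.7). mut-14 (chromosome V, 5658713 to 5660704) had 3 against 30 (0.390 against 5.42 RPM), 13.9-fold more (4.32 to 71.1). Both lay below the level that the size rule given further down asks for. The paralog of mut-14, smut-1, which acts redundantly with it in the germline, had 1 and 7 reads. Reads that match 2 near-identical stretches are placed on 1 of them by the aligner, so counts of paralogs are uncertain to that extent.

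Summed over the 4 mut genes, antisense reads were 21 and 189, a ratio of 12.5 (7.95 to 20.7).

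RDE-10 and RDE-11 form a complex that promotes the making of secondary siRNAs after a first small RNA has found its target, and RDE-12 is a DEAD-box helicase that joins them on target transcripts. Of all 10 genes rde-11 (chromosome IV, 13105200 to 13106927) had the most antisense reads in the RNAi library, namely 106 after 7 in wild type (19.1 after 0.910 RPM). Its ratio was 21.04 (9.86 to 53.6). rde-12 (chromosome V, 13665389 to 13669292) had the most in the wild-type library, 13 reads against 85 (1.69 against 15.3 RPM), and its ratio was 9.08 (5.04 to 17.8).

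The partner gene rde-10 stood at the other end. rde-10 (chromosome I, 3547071 to 3552005) had 0 antisense reads in wild type against 5 after RNAi (0.903 RPM). Against the floor of 3 reads in the wild-type library the ratio was 2.32, and the lower end of its counting interval was 1.27. It was the only member of the 10 with fewer than 10 antisense reads over both libraries, so it is not among the 5751 genes behind the medians. It was also the only one of the 10 to share exon sequence with a gene on the other strand, Y47G6A.21, over 57 bases. That gene had 2 and 8 sense reads, and their part in the count of rde-10 was not tested.

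The RNA-dependent RNA polymerases are the enzymes that copy the target. RRF-1 does so chiefly in somatic cells and EGO-1 in the germline, and the 2 genes are paralogs that lie side by side on the same strand of chromosome I, 563 bp apart. rrf-1 (7643431 to 7649777) had 6 antisense reads in wild type against 49 after RNAi (0.780 against 8.85 RPM), 11.3-fold more (4.86 to 32.4). ego-1 (7650341 to 7656338) had 2 against 22 (0.260 against 3.97 RPM), 15.3-fold more (3.76 to 134). In antisense reads the intervals of the 2 polymerase genes overlapped widely.

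The reads of rrf-1 fell on 3 annotated transcripts. The full-length transcripts had 1 and 2 antisense reads in the wild-type library and 19 and 22 in the RNAi library. A noncoding transcript of 695 nt at the 3′ end of the gene had 3 and 8. Reads that match several of these transcripts were placed on 1 of them, so the split does not locate reads within the gene.

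EKL-1, a Tudor-domain protein, works with EGO-1 in the germline pathway of the Argonaute CSR-1. ekl-1 (chromosome I, 7095486 to 7098400) had 2 against 11 antisense reads (0.260 against 1.99 RPM), 7.64-fold more (1.67 to 70.9). After rde-10 it had the fewest antisense reads in the RNAi library.

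**Figure D2:**
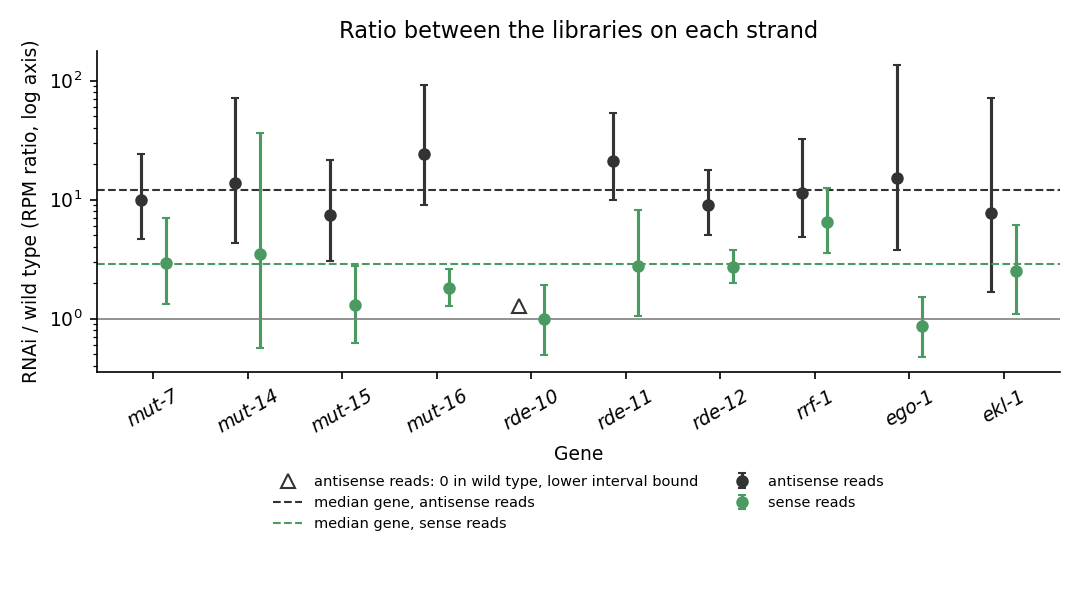
RPM after RNAi divided by RPM in wild type (vertical log axis) for antisense reads (black) and sense reads (green) of each gene. Bars are exact 95% Clopper-Pearson intervals of the binomial split, the open triangle is the lower end of the interval for rde-10 antisense reads (1.27), dashed lines are the medians over genes, 11.9 for antisense and 2.88 for sense reads, and the grey line is 1. Every antisense interval reaches across the antisense median, while sense intervals lie on both sides of theirs.

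A gene met the rule of size when it had 10 RPM or more in the higher library, differed by 4-fold or more and had an interval wholly beyond 2-fold. Of the 10 genes, 4 met it in the higher direction (mut-7, mut-16, rde-11 and rde-12) and 0 in the lower direction. Among all 5751 genes the shares were 18.6% higher and 2.63% lower. Under TMM 0 of the 10 were higher, beside 1.65% of all genes, and the calls over all genes went from 1069 higher and 151 lower to 95 higher and 165 lower. Without the minimum on the level 8 of the 10 met the rule, beside 75.9% of all genes.

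Set against the median gene instead of against equal levels, the 10 genes were spread around it. The log2 ratio of 5 was above the median of 3.58 and that of 5 below it, whereas 8 were above the median of 2.80 over the 13195 genes with 1 or more antisense reads. Among them rde-10 has its value of 3.93 from 0.5 added to a count of 0. With 5 added to each count rde-10 was at 1.474, below the median of 2.32. At the floor of 3 reads its plain ratio was 2.315, over 2-fold below that of the median gene. With 0.5 added and isoforms summed, none of the 10 lay 2-fold or more above or below 3.58, from ekl-1 at 2.68 to mut-16 at 4.44, whereas 23.5% of the 5751 genes lay that far above and 22.1% that far below. This depended on both choices. With the isoform of most reads only, rde-11 was at 5.735 against a median of 3.53. That isoform of rde-11 had 1 and 57 antisense reads in wild type and RNAi, and its other isoform 6 and 49. Reads that match both are placed on 1 of them, so the split does not tell them apart. With 5 added to each count mut-16 at 3.53 and rde-11 at 3.68 were over 2-fold above a median of 2.32. The interval of the ratio held the all-gene median for all 10 genes and for 81.7% of the 5751. It was wholly above that median for 0 of the 10, beside 6.21%, and wholly below it for 0, beside 12.1%. All 45 pairs among the 10 genes had overlapping intervals. At this depth the intervals thus set no 2 of them apart in their ratio, and differences within pairs were not tested.

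**Figure D3:**
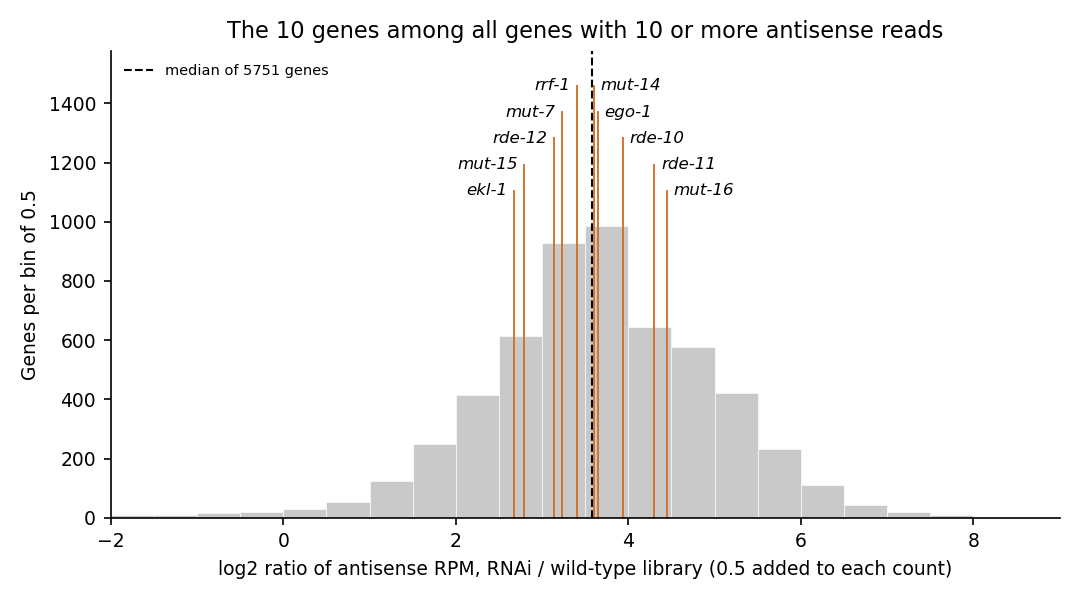
Histogram of the log2 ratio of antisense RPM (RNAi over wild-type library, 0.5 added to each count) over 5751 genes in bins of 0.5, with the 10 genes as orange lines and the all-gene median of 3.58 dashed. The axis runs from -2 to 9 and leaves out 227 genes to the left and 5 to the right, and rde-10 with 5 reads is drawn though it is outside the 5751. The 10 genes lie from 2.68 to 4.44.

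In level, the 10 genes lay on both sides of the median gene. Over the 5751 genes that median was 3 antisense reads in the wild-type library, with 6 of the 10 above it, and 22 reads in the RNAi library, with 7 of the 10 above it. Per kb of transcript 5 and 6 of the 10 lay above. Most genes passed the minimum of 10 reads through the RNAi library. Over the 968 genes with 10 or more wild-type antisense reads the median was 19, with 0 of the 10 above it. Those genes were picked on the count compared, so a median of at least 10 was fixed in advance and says little of the members. Picked likewise in the RNAi library, 5203 genes had a median of 24 reads, with 7 of the 10 above it. Highest in rank within their library were rde-12, at percentile 87.4 of the 5751 genes in wild type, and rde-11, at 91.05 in the RNAi library. Higher counts were found elsewhere: 672 genes outside the structural RNAs (ribosomal, transfer, small nuclear, small nucleolar and micro RNAs) had more wild-type antisense reads than rde-12, and 497 had more in the RNAi library than rde-11. For scale, unc-119 had 224 antisense reads in wild type and 98201 after RNAi.

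Longer transcripts can collect more reads, so levels of different genes were compared per kb of the longest annotated transcript. In the RNAi library rde-11, with a transcript of only 1350 nt, had 14.2 RPM per kb (11.6 to 17.1). The next, rde-12, had 4.68 RPM per kb (3.74 to 5.78), and the ratio of the 2 genes was 3.03 (2.26 to 4.08). Between its partner rde-10, at 0.431 RPM per kb, and rde-11 the ratio was 32.9 (13.7 to 103).

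Below rde-12 the order of levels per kb in the RNAi library was mut-16 (3.72), mut-7 (3.45), mut-14 (3.10), mut-15 (2.81), rrf-1 (1.76), ekl-1 (0.927), ego-1 (0.751) and rde-10. From rde-12 downward each gene's interval overlapped that of the next. rrf-1 exceeded ego-1 by 2.35-fold per kb (1.39 to 4.07). In the wild-type library rde-11 was first again, at 0.674 RPM per kb (0.271 to 1.39), but every neighbour in that order overlapped, and rde-11 over rde-12 was 1.31 (0.442 to 3.53). The median gene with a known length had 0.200 RPM per kb in the wild-type and 2.57 in the RNAi library.

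The levels were also set beside those of the adjoining genes. The nearest protein-coding genes on both sides of the 10 comprised 18 genes outside the group. Their median was 1.01 RPM per kb in the RNAi library, with 3 of them at 0 reads, against 2.96 for the 10 genes. Per kb in that library 5 of the 10 lay above both adjoining genes and 3 above 1 of them. How often genes at large lie above their adjoining genes was not counted, so these numbers set nothing apart in the 10. They are also not independent, since rrf-1 and ego-1 adjoin each other. The other 2, ego-1 and ekl-1, lay above neither. The contrast was wide around mut-16, with 70 reads between B0379.1 with 0 and scpl-1 with 1. It was wide also around mut-7, with 57 reads between ZK1098.3 with 0 and eif-2Balpha with 3. For rde-11 the flanking genes fask-1 and B0564.2 had 26 and 8 reads, or 2.44 and 1.91 RPM per kb. Of the 18 genes ncbp-2, beside rrf-1, had the highest value, 5.32 RPM per kb from 34 reads.

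Sense reads have the sequence of the transcript itself and were counted in the same libraries. Over the 10 genes they numbered 239 in wild type against 376 after RNAi (31.1 against 67.9 RPM), and the ratio was 2.19 (1.85 to 2.58). The median log2 ratio of sense reads over 7591 genes with 10 or more was 1.53, or 2.88-fold. The sense interval lay wholly above 1 for 6 of the 10 genes and for 69.3% of the 7591, and wholly below 1 for 0 of the 10 and for 0.975%.

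On the sense strand the 2 polymerase genes differed. rrf-1 had 14 sense reads in wild type against 65 after RNAi, a sense ratio of 6.45 (3.58 to 12.4), and ego-1 had 34 against 21, a sense ratio of 0.858 (0.473 to 1.52). Their intervals did not overlap. rrf-1 alone had an interval wholly above the sense median of 2.88, where 12.3% of all genes lay. Below that median lay the intervals of 4 genes, beside 12.5% of all genes: ego-1, rde-10 with 24 and 17 sense reads, mut-15 with 17 and 16, and mut-16 with 58 and 76. The most sense reads were on rde-12, with 63 and 123.

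On the 10 genes the share of antisense reads was higher in the RNAi library. Of the reads on the 10 genes, 17.6% were antisense in the wild-type library (Clopper-Pearson 13.4 to 22.5) and 55.4% in the RNAi library (52.0 to 58.8). For the median gene outside structural RNA the antisense share was 19.6% and 55.4%. Over all counted reads it went the other way, with 3429355 antisense of 7693320 reads in wild type and 1227822 of 5537671 after RNAi. In wild type 1 gene, mut-14, had more antisense than sense reads, 3 against 2, and rde-11 had 7 of each. In the RNAi library 5 genes had more antisense than sense reads: mut-7, mut-14, mut-15, rde-11 and ego-1. For ego-1 the counts were nearly equal, 22 against 21. How many of all genes did so was not counted. At the median gene's 55.4% antisense reads also outnumber sense reads, so this is no trait particular to the members.

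The shares of single genes ranged widely within a library. In the RNAi library 88.3% of the reads on rde-11 were antisense (81.2 to 93.5), 85.7% of those on mut-14 (69.7 to 95.2), and 40.9% of those on rde-12 (34.1 to 47.9). For rde-10 it was 22.7% (7.82 to 45.4), the lowest of the 10. The interval of the RNAi library lay wholly above that of the wild-type library for 5 of the 10 genes (mut-15, mut-16, rde-11, rde-12 and ego-1), beside 27.7% of 5579 genes. It lay wholly below for 0 of the 10, beside 2.76%. mut-16 went from 6.45% (1.79 to 15.7) to 47.9% (39.6 to 56.4), and ego-1 from 5.56% (0.680 to 18.7) to 51.2% (35.5 to 66.7).

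**Figure D4:**
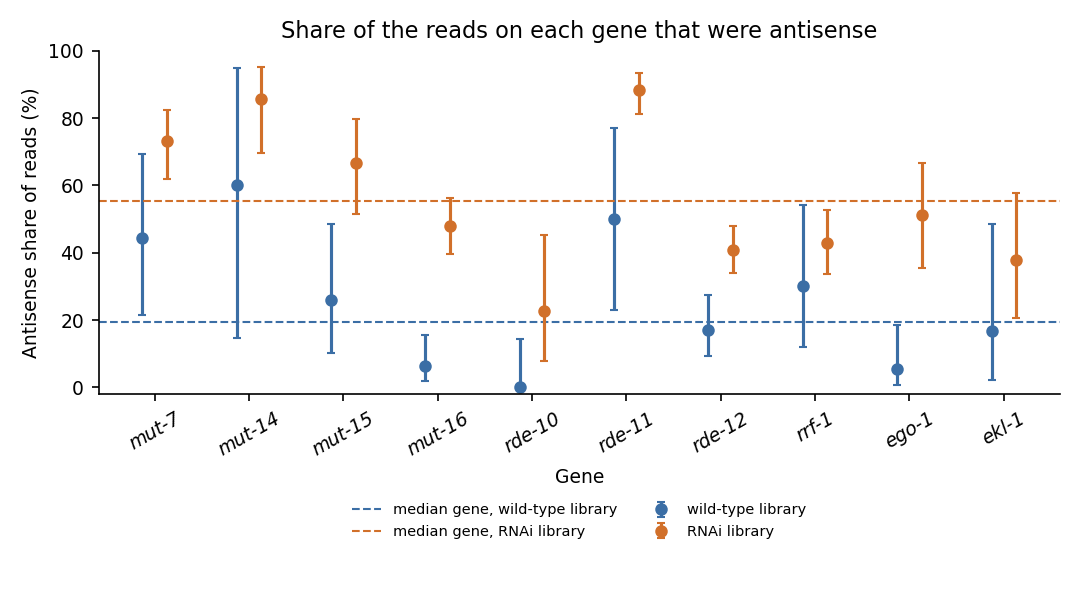
Percentage of the reads on each gene that were antisense (vertical axis) in the wild-type library (blue) and the RNAi library (orange), with exact 95% Clopper-Pearson intervals. Dashed lines are the medians over genes outside structural RNA, 19.6% and 55.4%. All 10 genes had a higher share in the RNAi library, as the median gene did. How many of all genes did so was not counted. For 5 of the 10 the interval of the RNAi library lies wholly above that of wild type, beside 27.7% of 5579 genes.

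Other genes of these pathways were described from lists made with earlier results of these data known. Of the 10 further mutator and amplification genes, 1 met the size rule, higher, and 0 lower, beside 18.6% and 2.63% of all genes, and under TMM 0 were higher. This was rrf-2, a further polymerase gene of the rrf-1 kind, with 9 antisense reads against 108, 16.7-fold more (8.46 to 37.4). Their summed reads were 26 and 261, 13.9-fold more (9.30 to 21.7), and among the 7 with 10 or more reads the median log2 ratio was 3.49. Among them drh-3, a helicase that works with both EGO-1 and RRF-1, had 3 and 23 reads. rde-2, a mutator gene whose protein binds MUT-7, had 0 and 12, and the lower end of its interval was 3.86. mut-2, which encodes a nucleotidyltransferase, had 1 and 4.

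All 4 polymerase genes of the worm had ratios above 1, as 95.1% of the 5751 genes did. rrf-3, the polymerase that makes the first small RNAs of the ERGO-1 pathway, had 3 antisense reads against 55, a ratio of 25.5 (8.27 to 127), and missed the size rule on its level of 9.93 RPM. Summed over rrf-1, ego-1, rrf-2 and rrf-3 the reads were 20 and 234, a ratio of 16.3 (10.3 to 27.1).

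Of the 4 nuclear RNAi genes, 2 met the size rule, both higher, beside 18.6% of all genes, and 1 did under TMM. hrde-1, the germline counterpart of NRDE-3, had 7 and 196 antisense reads and a ratio of 38.9 (18.5 to 98.0). nrde-2 had 10 and 146, a ratio of 20.3 (10.7 to 43.2). The interval of hrde-1 is wholly above the all-gene median, and that of nrde-2 holds it. As a list the 4 genes had a median log2 ratio of 4.59 and a summed ratio of 23.6 (15.7 to 37.3). That is above the 12.7 of the 10 genes, with an interval that overlaps theirs, and the difference was not tested.

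Of the 9 genes of double-stranded RNA uptake and primary siRNAs, 2 met the rule, both higher, a share near the 18.6% of all genes, and 0 did under TMM, where the list's median log2 ratio was -0.20. sid-1, which encodes the channel through which double-stranded RNA enters cells, had 8 antisense reads against 162, a ratio of 28.1 (13.9 to 66.3). dcr-1, the Dicer gene, had 6 and 57, a ratio of 13.2 (5.70 to 37.5). rde-4, whose protein hands double-stranded RNA to Dicer, had 30 antisense reads in wild type and 46 in the RNAi library. Its ratio of 2.13 (1.32 to 3.50) lay below those of the 9 mutator and amplification genes with reads in both libraries. Its interval overlaps those of mut-15 and ekl-1 among them and is wholly below the all-gene median, while that of sid-1 is wholly above it. sid-5 had 0 reads in both libraries, and the summed ratio of the list was 8.81 (6.58 to 12).

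Of the 7 germ granule and CSR-1 genes 6 were matched, and 1 met the size rule, a share near the 18.6% of all genes, with 0 under TMM and 0 when scaled to microRNA sense reads. This was glh-4, a helicase of P granules, with 13 and 83 antisense reads and a ratio of 8.87 (4.91 to 17.4). pgl-3 and pgl-1, which encode core P granule proteins, had 3 and 43 reads and 4 and 40 reads. Their summed ratio as a list was 11.5 (7.92 to 17.3).

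**Figure D5:**
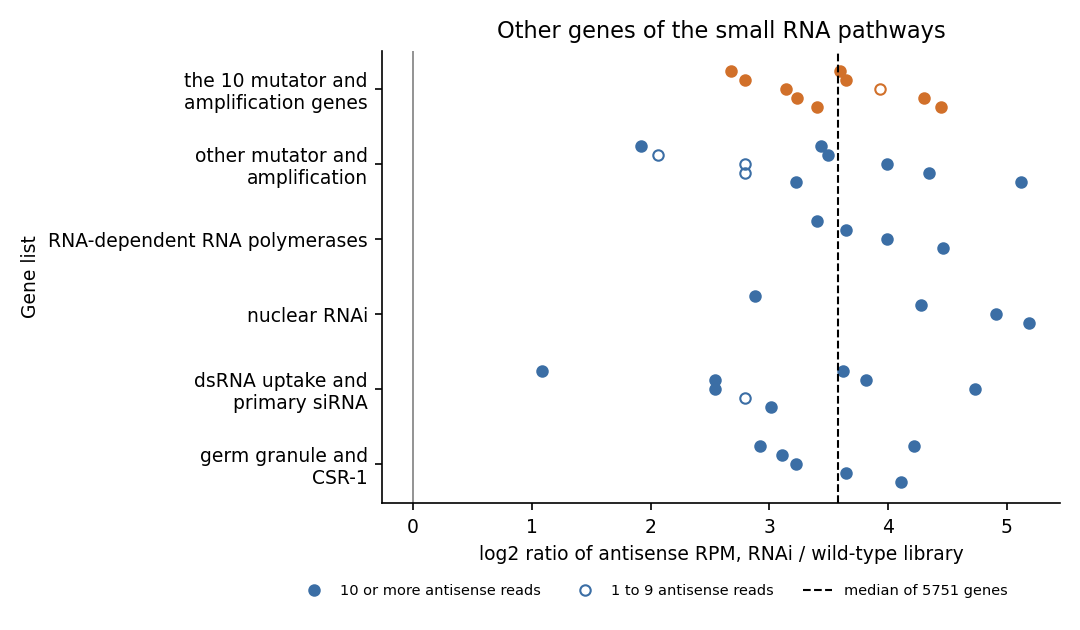
Log2 ratio of antisense RPM (horizontal axis, RNAi over wild-type library, 0.5 added to each count) for the 10 genes (orange) and the genes of 5 further lists (blue), each point a gene; rrf-1 and ego-1 stand in the list of polymerases too. Filled points have 10 or more antisense reads over both libraries, open points 1 to 9, and the dashed line is the all-gene median of 3.58. Points of all lists lie on both sides of it.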

How the data were processed

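Each of the 2 libraries held small RNAs that co-purified with tagged NRDE-3. Per the series' design text and the submitters' processing notes, the authors used Bowtie2 with its default settings (version not given) and the transcripts of WormBase release WS243. The deposited values are raw counts of sense and antisense reads per transcript. The file headers hold 5 names above 6 fields, so the sense and antisense columns were taken by their position, which was checked only on microRNA genes, whose reads lie almost wholly in the sense column. Counts were summed over isoforms, and 2 and 3 lines that name no gene (2 and 9 reads) were left out. Gene names, positions and lengths came from Ensembl 115 (WBcel235) by gene identifier (44852 of 45510 matched). No positions of reads are in the tables, and no sequences were used here.

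Ratios are RNAi over wild type in RPM with Clopper-Pearson intervals, and counts have Poisson intervals (scipy 1.17.1). With 1 library a group no test was made. TMM came from edgeR 4.0.16, used for scaling only. Other scalings, pseudocounts, read minimums and isoform choices were tried. Named genes were the 10 members and, of each further list, genes that met the size rule, otherwise up to 3 with the most reads. Further names were added once their values were known. The members and lists were chosen with earlier results of these data known.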

Additional observations from a re-analysis of the deposited data

How the results depend on the processing

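No paired analysis was possible because each group held 1 library, and for the same reason no replicate could be left out. Leaving out members that share sequence with a near copy was not run as planned, and members with a paralog of the same family were left out instead. That gave a median log2 ratio of 3.23, beside 3.58 for all genes, and a summed ratio of 12.7. Without rde-10, which overlaps a gene on the other strand, they were 3.40 and 12.6. In both settings 4 genes were higher by the size rule. The difference between the median log2 ratio of the 10 genes and that of all genes was -0.08. A scaling moves every gene by 1 constant and cannot change it. It was 0.09 with the isoform of most reads only, 0.34 with 5 added to each count, 0.70 against genes with 1 or more reads, -0.31 against the 782 genes with 100 or more, and -0.07 with counts of 0 at the floor, a setting chosen after seeing the data. Its sign therefore depended on these choices. The median itself went from 3.50 to 0.29 under TMM and 0.29 under median-of-ratios factors, 1.715 when scaled to microRNA sense reads, 4.67 when scaled to antisense reads outside structural RNA, and 2.67 with 5 added. The summed ratio became 1.38, 1.37, 3.69 and 28.6 under these 4 scalings. Under TMM and median-of-ratios factors mut-15 turned to -0.41 and -0.415, rde-12 to -0.07 and -0.074 and ekl-1 to -0.53 and -0.535, by construction, since these scalings lower every log2 ratio by 3.21. The 4 genes higher by the size rule became 0 under TMM and 0 under median-of-ratios factors, 2 under microRNA scaling, 2 with 1 isoform, 8 without the level minimum and 0 when 2-fold from the all-gene median was asked for instead. In no setting run was a member lower by the size rule. Against the median of genes with 10 or more wild-type reads (19 reads), 0 of the 10 lay above in place of 6. Those genes were picked on the same counts, so their median had to be at least 10. With the same choice in the RNAi library (median 24 reads) 7 of the 10 lay above, unchanged. The summed sense ratio was 2.84 with reads outside structural RNA as the total. Median log2 ratios under TMM and microRNA scaling were 0.29 and 1.71 for the further mutator genes, 0.61 and 2.03 for polymerases, 1.39 and 2.81 for nuclear RNAi, and 0.23 and 1.65 for germ granule genes, and -0.20 under TMM for uptake genes. Under TMM the genes called higher in these lists were 0, 0, 1, 0 and, for uptake genes, 0, and under microRNA scaling 1 uptake gene and 0 germ granule genes. Wild-type counts of 0 to 13 reads per gene limit every ratio given here.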
